A study of Mus musculus with 26 samples.

Results

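Onecut1 was mapped by ChIP-exo in mouse motor neuron cultures on day 6 and on day 5 of differentiation, with 1 library per day. All positions that the authors' deposited lists give as Onecut1 events were taken: 63488 on day 6 and 23245 on day 5. Together they are 86733 of the 487048 events and peaks in all the lists used here. Both cultures came from mouse embryonic stem (ES) cells that the labels call iCre, with a second label naming Ainv15 cells. On day 2 they received retinoic acid at 1 uM and the Hedgehog pathway agonist SAG at 0.25 uM. The Notch pathway inhibitor DAPT, at 5 uM, was given on days 4 and 5 to the day 6 culture and on day 4 to the day 5 culture. The labels name the same antibody lot on both days. The series holds 26 samples in all, and the other maps used here (open chromatin, acetylated histone, p300, Isl1, Ngn2 and the library labelled Lhx3) serve only to describe the Onecut1 events. For the day 4 samples the labels list no DAPT, and for the library labelled Lhx3 also no SAG. None of these compounds is listed for ATAC of day 2 or RNA of day 0.

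Onecut1, first known as a hepatocyte nuclear factor of the liver, belongs to the Onecut family, whose members bind DNA through a cut domain next to a homeodomain. In the mouse spinal cord Onecut factors are made in newborn motor neurons, where they are known to help keep Isl1, the LIM homeodomain factor of motor neurons, expressed. In ChIP-exo the precipitated DNA is digested by an exonuclease as far as the crosslinked protein, so that an event is a single position placed to within a few base pairs. The reads that the caller assigned to an event are called IP reads below. They belong to their own library and were, with total depths not given in the sources used here, ranked only within a list.

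The RNA of the same differentiation held Onecut messages on both days. Onecut1 stood at 0.0586, 1.99, 12.5 and 14.0 FPKM (fragments per kilobase of transcript and per number of mapped fragments) on days 0, 4, 5 and 6. Onecut2 stood at 0.0812, 1.52, 15.6 and 18.4 FPKM on the same days. Onecut3 was the lowest of the family, at 0.0137, 0.160, 1.15 and 1.05 FPKM. The labels give days 0 and 4 to another line, HBG3, so only days 5 and 6 share a line. All 8 motor neuron markers examined reached 1 FPKM on day 6 and 7 of 8 did on day 5, with summed levels of 313.6 and 201.7 FPKM. Of the 8 markers 4 were higher and 4 lower on day 6, and without Prph the other 7 summed to 181.5 FPKM on day 6 and 193.5 FPKM on day 5. Isl1 stood at 116.5 FPKM on day 6 and 88.0 FPKM on day 5. Prph, which encodes the intermediate filament peripherin, stood at 132.1 FPKM on day 6 and 8.16 FPKM on day 5. The LIM homeodomain factor Lhx3 stood at 3.90 FPKM on day 6 and 24.1 FPKM on day 5, and its relative Lhx4 at 10.4 FPKM on day 6 and 22.8 FPKM on day 5. Mnx1, the homeodomain factor of motor neurons, stood at 22.0 FPKM on day 6 and 36.5 FPKM on day 5. The culture of day 5 still held progenitor RNA: of 5 progenitor markers 1 reached 1 FPKM on day 6 and 5 on day 5, with sums of 10.1 and 43.5 FPKM. Among them Olig2, the factor of motor neuron progenitors, stood at 0.95 FPKM on day 6 and 17.3 FPKM on day 5. The sums on day 6 and on day 5 were 1.13 and 1.81 FPKM for 4 V2 interneuron markers, and 1.90 and 4.52 FPKM for 6 markers of V0, V1 and dorsal interneurons. They were 11.6 and 10.4 FPKM for 3 markers of V3 interneurons and the floor plate, and 10.2 and 11.9 FPKM for 4 glial markers. Of the glial sums Mbp alone held 9.90 FPKM on day 6 and 11.5 FPKM on day 5. The glial markers Slc1a3, Sox10 and Gfap each stayed under 1 FPKM on both days. Gfap was listed at 0 on day 6 and at 0.0155 FPKM on day 5. The pluripotency factor Nanog was listed at 0 on both days. In these bulk cultures a change in the number of cells of a type and a change in RNA per cell cannot be told apart. The part of these other cells in the binding results was not tested.

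The lists differed in length, in strength and in their control values. IP reads per event had a median of 16 on day 6 (quartiles 11 and 29, highest 806.8) and a median of 13 on day 5 (quartiles 9 and 21, highest 603.1). In all, 1993145 IP reads were assigned to events on day 6 and 535841 on day 5. The strongest decile of the events took 45.2% of these reads on day 6 and 42.2% on day 5, so both lists rested on a few strong events and a long weak tail. Both lists ended at a -log10 q of about 2. The share of events below a -log10 q of 3 was 25.9% on day 6 and 49.0% on day 5, so more of the day 5 list lay near its limit. The control value was 0 at 93.9% of day 6 events and at 76.1% of day 5 events. The commonest control value above 0 was 11.8 on day 6, held by 1688 of 3849 events, and 1.5 on day 5, held by 1988 of 5554 events. The names of the deposited lists also carry different marks for the Onecut1 libraries, and that of day 6 is shared with Isl1 day 6 replicate 1. The day and the preparation of the library therefore cannot be told apart, and with 1 library per day no test between days was possible. Intervals in brackets are 95% Clopper-Pearson intervals, which cover counting error only.

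Most day 5 events were found again on day 6, while most day 6 events had no counterpart on day 5. The day 5 list is much the shorter, so only a minority of day 6 events could each have a day 5 partner of their own. A day 5 event lay within 100 bp of 16111 of 63488 day 6 events, 25.4% (25.0 to 25.7). A day 6 event lay within 100 bp of 16380 of 23245 day 5 events, 70.5% (69.9 to 71.1). When a list was moved by 10 kb up or down the chromosome, 0.206% and 0.219% of day 6 events still found a partner, and 0.602% and 0.607% of day 5 events did. Matching in either direction was thus far more frequent than at the shifted positions. On single chromosomes the matched share of day 6 events ran between 22.9% on X and 26.9% on chromosome 4. The matched share of day 5 events ran between 67.2% on chromosome 16 and 73.6% on chromosome 11. There were between 2.56 day 6 events per day 5 event (chromosome 4) and 3.01 (chromosome 19), so no chromosome departed far from the whole.

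Matching grew with the strength of the event on both days. In deciles of the day 6 list by IP reads, the share with a day 5 event was 4.93% (4.41 to 5.49) in the weakest decile, at 8 reads or fewer. It was 18.2% in decile 5, 34.8% in decile 8 and 63.2% (62.0 to 64.4) in the strongest, at 69 reads or more. In the day 5 list it was 57.4% (55.4 to 59.4) in the weakest decile, 69.1% in decile 5, 75.4% in decile 8 and 90.2% (89.0 to 91.4) in the strongest, at 46.1 reads or more. In both lists each decile stood above the weaker one next to it. At shifted positions no decile exceeded 0.291% in the day 6 list or 0.710% in the day 5 list. At a given strength the shares differed little with the control value. Among day 6 events over 80 reads, 63.1% (61.5 to 64.7) of those with a control of 0 and 67.4% (65.1 to 69.7) of those with a control above 0 had a day 5 event. Among day 5 events over 80 reads the shares were 94.0% (91.0 to 96.3) and 93.2% (91.1 to 94.9).

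**Figure D1:**
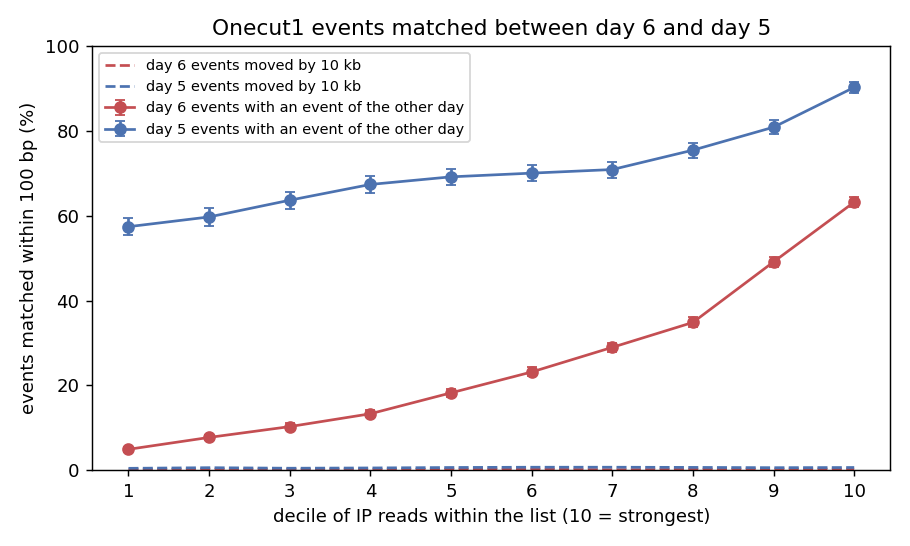
Share of Onecut1 events with an event of the other day within 100 bp (y axis, %) by decile of IP reads within the list (x axis, 10 the strongest), for day 6 events (red) and day 5 events (blue), with 95% exact binomial bars, and the share after a shift of 10 kb (dashed). The day 6 line climbs between 4.93% and 63.2%, the day 5 line between 57.4% and 90.2%, and both dashed lines lie under 1%.

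At equal list length the shares of day 6 and day 5 are not independent, since largely the same pairs are counted over equal numbers. They can differ where several events of one day lie near the same event of the other. What these shares give is the level of matching. The strongest 23245 day 6 events, all at 21 IP reads or more, were set against the whole day 5 list. Of these, 10611 (45.6%, 45.0 to 46.3) had a day 5 event, and 11100 of the day 5 events (47.8%, 47.1 to 48.4) had one of these day 6 events. The shifted shares were 0.194% and 0.271% for the day 6 events and 0.258% and 0.211% for the day 5 events. With both lists held to their strongest 5000, 47.5% (46.1 to 48.9) of day 6 events and 57.0% (55.6 to 58.3) of day 5 events were matched. With the strongest 1000 the shares were 43.3% (40.2 to 46.4) on day 6 and 48.8% (45.7 to 52.0) on day 5. With the strongest 100 they were 36% (26.6 to 46.2) on day 6 and 38% (28.5 to 48.3) on day 5. At none of the lengths examined did the share on either day exceed 57.0%.

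Many of the strongest events missing from the other day's short list were present lower in its full list. At the strongest 1000, this held for 308 of 567 missing day 6 events and 450 of 512 missing day 5 events. At the strongest 10000 it held for 1156 of 5251 on day 6 and 2585 of 4704 on day 5, so for day 6 it was a minority there. Of the 100 strongest day 6 events, 88 had an event somewhere in the whole day 5 list, and of the 100 strongest day 5 events 97 had one in the whole day 6 list. Of the 1000 strongest, 741 did on day 6 and 938 on day 5. Of the 10000 strongest, 5905 did on day 6 and 7881 on day 5. Thus 4095 of the 10000 strongest day 6 events had no day 5 event within 100 bp.

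**Figure D2:**
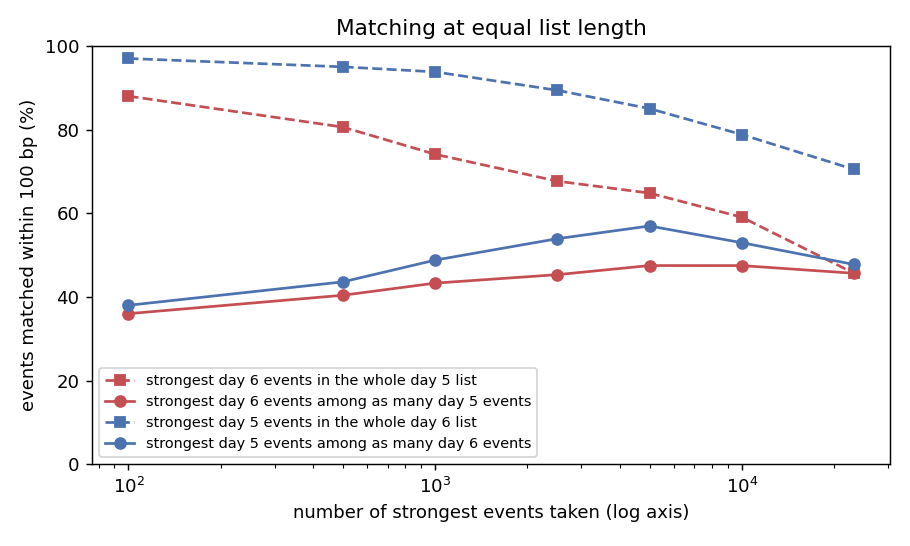
Share of the N strongest Onecut1 events matched within 100 bp (y axis, %) against N (x axis, log scale), for day 6 (red) and day 5 (blue), matched to as many events of the other day (solid) or to its whole list (dashed). At N of 100 the solid lines stand at 36% and 38%, and the dashed lines at 88% and 97%, for day 6 and day 5.

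Matched events sat at almost the same base. Each event was joined to its nearest event of the other day where the choice was mutual, which gave 14955 pairs. The median distance within a pair was 1 bp. In 28.3% of pairs the positions were identical, in 66.5% they differed by at most 1 bp, in 89.0% by at most 5 bp, and in 4.44% by more than 20 bp. The median signed offset was 0 bp, so neither day was displaced to one side. At a match distance of 10 bp in place of 100 bp, 22.2% of day 6 events and 61.6% of day 5 events were matched. Some events had no partner of their own: 1211 day 6 events were the nearest of several day 5 events, 2599 in all, and 1070 day 5 events were the nearest of several day 6 events, 2172 in all.

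IP reads of the paired events ranked alike, with much spread. Across the 14955 pairs Spearman's rank correlation was 0.622 and Pearson's r of log10 IP reads was 0.691. These describe events that share genome, cell line and antibody, and carry no test. The median was 29.3 reads on day 6 and 13 reads on day 5, and the median ratio of day 6 over day 5 was 1.93 (quartiles 1.29 and 3.13), which without the library depths cannot be read as more binding. Of the 3739 pairs above the upper quartile on day 6, 2478 (66.3%) were also above it on day 5, while 198 (5.30%) were below the lower quartile there. Of the 3739 above the upper quartile on day 5, 102 (2.73%) were below the lower quartile on day 6.

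**Figure D3:**
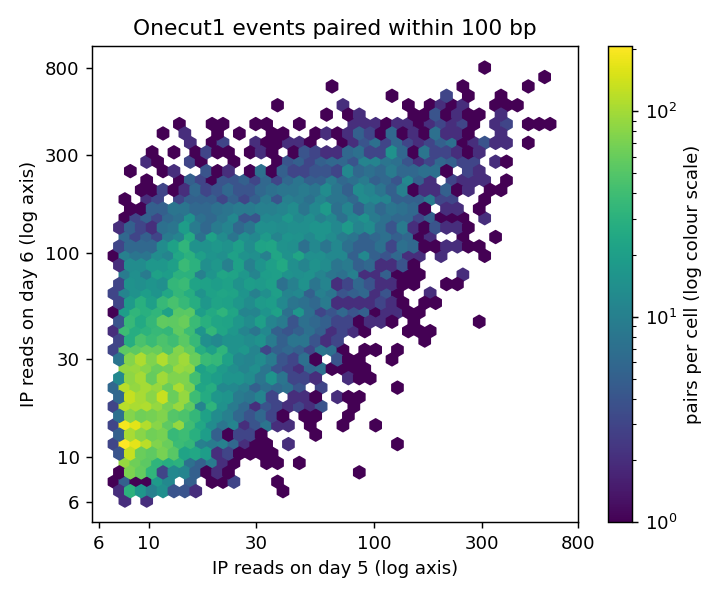
IP reads of 14955 mutually nearest Onecut1 pairs on day 6 (y axis, log scale) and day 5 (x axis, log scale), with the colour giving the number of pairs per cell on a log scale. Spearman's rank correlation is 0.622: pairs strong on day 5 are mostly strong on day 6, and the weak day 5 events at the left span nearly the whole range of day 6.

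The strongest events found on both days had high ranks in each list. At chr11:102825203 (mm9, as all positions here) the event had 709.3 IP reads on day 6 and 603.1 on day 5, at the same base, and it was second on day 6 and first on day 5. It lay inside an ATAC peak of day 6. At chr7:134592605 the event had 653.9 reads on day 6 and, 1 bp away, 457.7 on day 5, and ranked sixth on both days. It lay inside an ATAC peak and an H3K27ac peak of day 6 and 9 bp from an Isl1 event of day 6 replicate 1, while the nearest event of replicate 2 was 1022326 bp away. At chr18:35974479 the event had 556.5 reads on day 6 and 376.9 on day 5, inside ATAC peaks of both days. At chr7:139694830 it had 571.3 reads on day 6 and 378.4 on day 5, and at chr11:35343703 it had 514.5 and 340.5. The event at chr11:35343703 lay within 8 bp of an event in each of the 4 Isl1 libraries. These 5 were taken by their worse rank of the days, so their height on both days is how they were chosen.

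Events on day 6 only numbered 47377, or 74.6% of the day 6 list, with a median of 14 IP reads against 30 reads for the matched day 6 events. Events on day 5 only numbered 6865, or 29.5% of the day 5 list, with a median of 11 reads against 14 for the matched day 5 events. Strong events stood in both unmatched classes. The strongest on day 6 only lay at chr3:16747367 with 685.4 IP reads and a control of 0, and was the third strongest of the day 6 list. It lay inside ATAC peaks of both days, and the nearest day 5 event was 292 bp away. Isl1 events lay 35 bp and 75 bp away in the day 5 replicates, and none of day 6 was nearer than 158026 bp. The next were chr11:66650498 with 665.9 reads, chr19:47104342 with 651.3, chr2:123143526 with 646.0 and chr14:55711243 with 520.7. The event at chr11:66650498 had no day 5 event nearer than 14401 bp. It lay 7 bp and 22 bp from Isl1 events of the day 6 replicates, while the nearest Isl1 events of day 5 were 963784 bp and 488711 bp away. A p300 event lay 1 bp away on day 6 and 47 bp away on day 5, and the position was 128 bp outside the nearest ATAC peak of day 6 but inside an ATAC peak of day 5.

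The strongest event on day 5 only lay at chr9:63344734 with 410.3 IP reads and was the eighth strongest of that list. Its nearest day 6 event was 1628 bp away, and its nearest ATAC peak was 97591 bp away on day 6 and 127 bp away on day 5. Isl1 events lay 117 bp and 121 bp away in the day 5 replicates. The day 6 replicates differed, with the nearest Isl1 event 43 bp away in replicate 2 and 84674 bp away in replicate 1. The next was chr3:16745092 with 299.0 reads, 2275 bp from the strongest event found on day 6 only. The others were chr17:16294831 with 232.0 reads, chr1:30256039 with 209.6 and chr3:139392165 with 201.0. The event at chr1:30256039 had an Isl1 event of day 5 replicate 1 at 35 bp and an event of the library labelled Lhx3 at 19 bp. The nearest Isl1 event was 993882 bp away on day 6 and 3389570 bp away in day 5 replicate 2, and the position lay inside an ATAC peak of day 6.

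An unmatched event more often had an event of the other day in its wider neighbourhood than a shifted position did. Between 100 and 1000 bp, 3.65% (3.48 to 3.82) of events on day 6 only had a day 5 event, against 1.80% after the shift. Over the same distances 10.5% (9.82 to 11.3) of events on day 5 only had a day 6 event, against 5.25% after the shift. Between 1000 and 5000 bp the observed and shifted shares were 8.04% and 7.68% for day 6 only, and 20.7% and 19.5% for day 5 only. At 5000 to 10000 bp they were 8.09% and 9.24%, and 17.6% and 20.4%. The excess thus lay mainly within 1000 bp. In windows of 1 Mb both days followed a like profile: over 2531 windows Spearman's rank correlation of the numbers of events was 0.777, with a median of 24 events on day 6 and 8 on day 5. The windows share the genome and cell line on both days, so the value is a description.

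Events came in close groups on both days. The median distance to the next event was 21.5 kb in the day 6 list and 53.9 kb in the day 5 list, and 47.0 kb in the equal-length day 6 list, so at equal length the days differed less. At most 100 bp separated neighbours at 5.56% of the spacings on day 6, at 11.9% in the equal-length day 6 list and at 12.7% on day 5. Close neighbours lay farther apart on day 6. Among spacings of up to 100 bp the median was 39 bp on day 6, 34 bp in the equal-length day 6 list and 24 bp on day 5. Spacings of 6 to 20 bp made up 23.8%, 28.4% and 40.8% of them in the same order. Fewer than 6 bp was rare, with 37 spacings on day 6, 31 in the equal-length list and 73 on day 5. Neighbours so close share reads, so the caller's own resolution bears on these numbers, and its part was not tested.

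**Figure D4:**
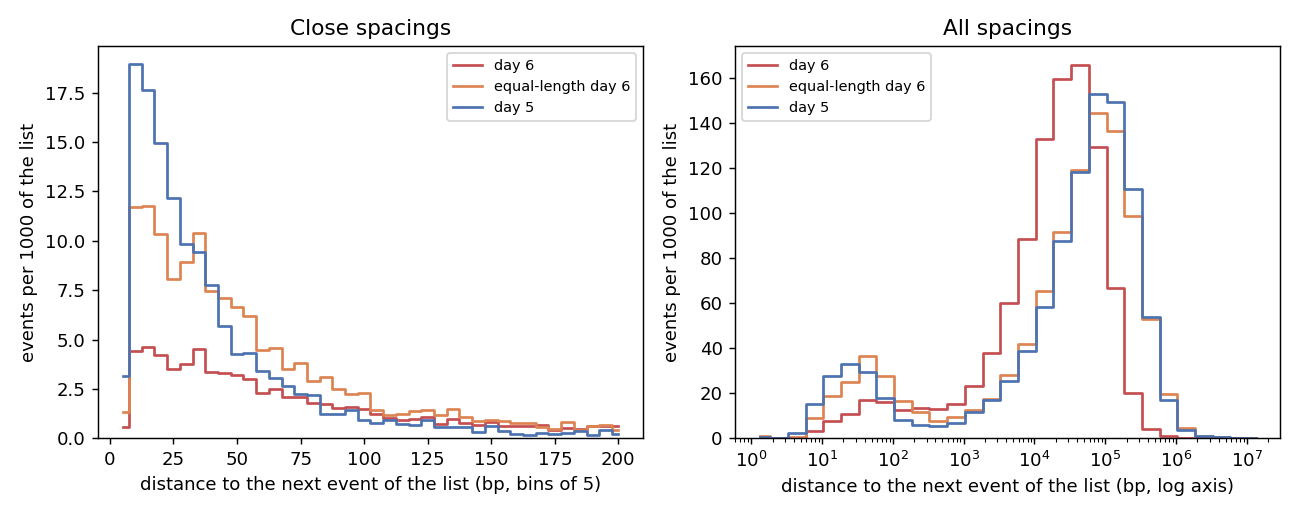
Distance to the next Onecut1 event of the same list (x axes, bp), as events per 1000 of the list (y axes), for day 6 (red), the equal-length day 6 list (orange) and day 5 (blue). Left, spacings up to 200 bp in bins of 5 bp: the day 5 line is highest under 20 bp and falls below the equal-length day 6 line beyond about 40 bp. Right, all spacings on a log axis: the medians are 21.5, 47.0 and 53.9 kb.

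Events were joined into a cluster while the next lay within 500 bp. Clusters of 2 or more held 17.3% of day 6 events, 28.9% of the equal-length day 6 list and 25.8% of day 5 events. There were 5196 such clusters on day 6, 3166 in the equal-length list and 2631 on day 5, and the largest held 7 events in each. On day 6 the largest lay at chr1:39189883-39190082, with 7 events of which 5 had a day 5 event. It was followed by chr15:102583539-102583736 with 6 events and chr4:117900131-117900203 with 5, all of them matched. On day 5 the largest lay at chr13:116443685-116443961 and chr18:83355300-83355450, with 7 events each, and chr3:86345393-86345483, with 5. All events of these day 5 clusters had a day 6 event.

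Clusters were matched more often than single events. On day 6, 20.5% (20.2 to 20.9) of single events had a day 5 event, against 53.5% (52.1 to 55.0) of clusters of 2 and 69.5% (65.4 to 73.4) of clusters of 3 or more. On day 5 the shares with a day 6 event were 66.1% (65.4 to 66.8), 83.4% (81.7 to 85.0) and 91.0% (88.3 to 93.2). A cluster offers more positions to match and its strongest event is stronger, with a median of 14 IP reads for single events and 96.9 for clusters of 3 or more on day 6. Where the strongest event exceeded 80 reads, 54.8% (52.9 to 56.8) of single events and 73.0% (71.0 to 74.9) of clusters were matched on day 6. On day 5 these shares were 88.3% (83.4 to 92.2) and 94.3% (92.3 to 96.0). A minority of close neighbours had both ends in mutual pairs with the other day. Among all single events such pairs held 23.6% on day 6 and 64.3% on day 5. Of the 3528 neighbours within 100 bp on day 6, 1080 (30.6%) had both ends paired on day 5. Their spacing was kept to within 2 bp in 776, which is 71.9% of the 1080 and 22.0% of the 3528. Of the 2939 such neighbours on day 5, 1009 (34.3%) had both ends paired on day 6. Here 723 kept their spacing to within 2 bp, which is 71.7% of the 1009 and 24.6% of the 2939.

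The Isl1 libraries, the only ones of the same assay with replicates on these days, showed how far libraries of a single day differ. Each list was held to its strongest 1079 events, the length of the shortest Isl1 list. Onecut1 was matched at 44.2% of day 6 events and 49.8% of day 5 events. For the second replicate of day 5 this is its whole list. The Isl1 replicates of day 6 were matched to each other at 37.2% and 36.5%, and those of day 5 at 45.9% and 48.2%. Isl1 of day 6 was matched to Isl1 of day 5 at between 12.9% and 25.8% over the 4 pairs of libraries and both directions. Onecut1 across days was therefore shared about as often as Isl1 within a day, and more often than Isl1 across days, although the antibodies and list lengths differ and no test was made. Paired Isl1 events lay a median of 15 to 21 bp apart, against 1 bp for Onecut1.

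Onecut1 events lay mostly outside open chromatin as these lists define it, in each class. Peaks of ATAC-seq, which marks accessible DNA, were 100 bp wide at the median. On day 6 they held 6.07% (5.86 to 6.29) of events on day 6 only, 15.0% (14.5 to 15.6) of day 6 events found on both days, and 5.88% (5.34 to 6.47) of events on day 5 only. ATAC peaks of day 5 held 3.75% (3.58 to 3.92), 11.1% (10.6 to 11.6) and 6.34% (5.77 to 6.94) of the same classes. Shifted positions gave between 0.205% and 0.306%. Events on day 6 only thus lay more often in day 6 than in day 5 peaks, as did day 6 events on both days. Matched day 5 events did too, at 15.1% in day 6 and 12.1% in day 5 peaks. For events on day 5 only the intervals overlapped. Outside the peaks of all of days 2, 4, 5 and 6 lay 91.4% of events on day 6 only, 79.6% of day 6 events of both days and 89.2% of events on day 5 only.

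In ATAC peaks of day 6 the gap between the classes went largely with strength among day 6 events. Among day 5 events it stayed at equal strength in these peaks, while in ATAC peaks of day 5 the intervals overlapped. Among day 6 events over 80 IP reads, ATAC peaks of day 6 held 37.7% (35.5 to 39.9) of those on day 6 only and 42.4% (40.7 to 44.1) of those on both days. Between 20 and 40 reads the shares were 9.35% (8.74 to 9.98) on day 6 only and 7.26% (6.52 to 8.07) on both days. At 10 reads or fewer they were 1.45% (1.27 to 1.66) and 0.377% (0.103 to 0.962). Matched events were thus ahead among the strongest, by less than over the whole list, and events on day 6 only were ahead among the weaker ones. Among day 5 events over 80 reads, ATAC peaks of day 6 held 26.8% (16.9 to 38.6) of those on day 5 only, 19 of 71, and 43.7% (40.6 to 46.8) of those on both days. Matched day 5 events were ahead in each range of strength. The shares were 23.2% against 12.7% between 20 and 40 reads and 4.82% against 2.36% at 10 reads or fewer. In ATAC peaks of day 5, matched day 6 events led between 40 and 80 reads, at 12.7% against 9.09%, and over 80 reads, at 31.9% against 24.7%. Up to 40 reads the intervals there overlapped. Day 5 events in ATAC peaks of day 5 stood at 2.24% on both days and 2.23% on day 5 only, at 10 reads or fewer. Between 20 and 40 reads these shares were 18.8% and 14.6%. Over 80 reads they were 44.8% (41.7 to 47.9) and 33.8% (23.0 to 46.0). The intervals of these day 5 classes overlapped in each range of strength.

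Inside peaks of H3K27ac, the acetylated histone mark of active enhancers and promoters, the classes of day 6 events stood the other way at equal strength. Peaks of day 6 held 5.99% (5.78 to 6.21) of events on day 6 only and 7.86% (7.45 to 8.28) of day 6 events on both days, but within each range of strength the events on day 6 only were ahead. Over 80 reads the shares were 25.6% (23.7 to 27.6) on day 6 only and 18% (16.8 to 19.4) on both days, and between 20 and 40 reads they were 11.2% (10.6 to 11.9) and 6.12% (5.44 to 6.87). H3K27ac peaks of day 5 held 1.19% of events on day 6 only, 1.64% of day 6 events on both days and 2.49% of events on day 5 only. Shifted positions gave 0.541%, 0.602% and 0.757% for these classes. For the peaks of day 6 they gave 1.65% on day 6 only and 1.90% for day 6 events on both days. Observed and shifted shares thus lay nearer to each other than for ATAC. The day 6 H3K27ac list is the longer, with 47275 peaks over 29.8 Mb against 24525 over 11.5 Mb on day 5, so shares were compared within a list.

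Onecut1 events were densest just outside H3K27ac peaks. Around the peaks of day 6, events on day 6 only stood at 95.1 per Mb inside the peaks, 197.5 per Mb within 100 bp outside, 158.7 per Mb at 101 to 200 bp, 58.7 per Mb at 201 to 500 bp and 24.9 per Mb at 501 to 1000 bp. Day 6 events of both days stood at 42.4, 143.8, 113.2, 32.8 and 9.59 per Mb in the same zones. Events on day 5 only stood at 18.2, 35.7, 28.7, 14.6 and 5.45 per Mb. Each class was thus densest in the first 100 bp outside these peaks. Around H3K27ac peaks of day 5 the highest density lay at 101 to 200 bp in each class. There events on day 6 only stood at 97.7 per Mb, against 96.2 per Mb in the first 100 bp and 48.9 per Mb inside. Day 6 events of both days stood at 88.0, 69.1 and 23.0 per Mb in those zones, and events on day 5 only at 36.7, 32.3 and 14.8 per Mb. Around ATAC peaks of day 6 the order differed: events of both days stood at 460.4 per Mb inside, 163.1 per Mb within 100 bp outside and 43.8 per Mb at 101 to 200 bp.

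**Figure D5:**
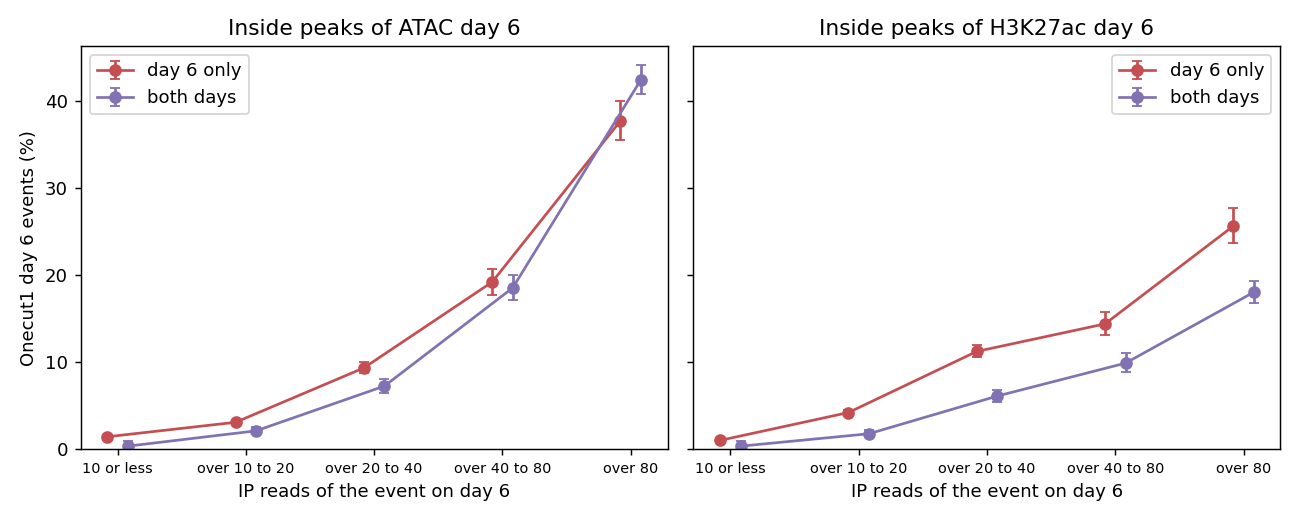
Share of day 6 Onecut1 events inside ATAC peaks (left) and H3K27ac peaks (right) of day 6 (y axes, %) by IP reads of the event (x axes), for events on day 6 only (red) and on both days (purple), with 95% exact binomial bars. The ATAC shares climb together, to 37.7% and 42.4% over 80 reads, while the H3K27ac share of events on day 6 only is the higher in every range, 25.6% against 18% over 80 reads.

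Isl1 events of day 6 and p300 events of both days were met more often by Onecut1 of day 6 than by Onecut1 of day 5. Of 1470 Isl1 events of day 6 replicate 1, a Onecut1 event lay within 100 bp of 53.7% on day 6 and 34.6% on day 5. Of 1560 events of replicate 2 the shares were 40.1% on day 6 and 26.0% on day 5. With the equal-length day 6 list they were 51.4% for replicate 1 and 38.4% for replicate 2, still above the day 5 shares. For Isl1 of day 5 the full Onecut1 lists lay close together: 16.0% on day 6 and 15.9% on day 5 for replicate 1. For replicate 2 the shares were 18.9% and 17.5%. With the equal-length day 6 list they were 13.1% for replicate 1, below the day 5 share, and 17.3% for replicate 2, close to it. p300, an acetyltransferase recruited to active enhancers, was met at 37.1% of 1337 day 6 events by Onecut1 of day 6 and at 25.8% by Onecut1 of day 5, with 34.6% for the equal-length day 6 list. Of 19398 p300 events of day 5 the shares were 9.31% on day 6 and 5.56% on day 5, and 7.66% with the equal-length day 6 list. Shifted shares were at most 0.929%.

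The unmatched classes differed in how often they met Isl1 of day 5, while for Isl1 of day 6 their intervals overlapped in each replicate. An Isl1 event of day 5 replicate 1 lay within 100 bp of 0.245% (0.202 to 0.294) of events on day 6 only, 1.94% (1.74 to 2.17) of day 6 events on both days and 2.00% (1.68 to 2.35) of events on day 5 only. For day 5 replicate 2 the shares were 0.146% (0.113 to 0.184), 1.18% (1.02 to 1.36) and 1.14% (0.899 to 1.42). For day 6 replicate 1 they were 0.796% (0.718 to 0.880), 4.54% (4.22 to 4.87) and 0.728% (0.541 to 0.959), and for replicate 2 they were 0.671%, 3.19% and 0.932%. Set beside matched events of their own list, events on day 5 only fell short by less for Isl1 of day 5 than for Isl1 of day 6. Matched day 5 events met day 5 replicate 1 at 2.61% (2.37 to 2.87) and replicate 2 at 1.51% (1.33 to 1.71), and met the day 6 replicates at 4.77% (4.45 to 5.11) and 3.36% (3.09 to 3.65). The classes also differ in strength, and among day 6 events the gap for Isl1 of day 6 was narrower in proportion at equal IP reads. Over 80 reads, Isl1 of day 6 replicate 1 lay near 9.84% (8.54 to 11.3) of events on day 6 only and 16.2% (14.9 to 17.4) of day 6 events on both days, and replicate 2 near 7.14% (6.02 to 8.40) and 11.7% (10.6 to 12.8). Between 20 and 40 reads the shares were 0.863% and 1.12% for replicate 1, and 0.978% and 0.740% for replicate 2, where the order turned with overlapping intervals. Among day 5 events of 20 to 40 reads, replicate 1 lay near 1.30% on day 5 only and 8.02% on both days, and replicate 2 near 2.59% and 5.32%. Over 80 reads these shares were 8.45% and 23.2%, and 9.86% and 16.4%, the last 2 with overlapping intervals. Isl1 of day 5 was not split by strength. The library labelled Lhx3, made from the induced NIL line on day 4 and whose deposited name mentions Isl1 in its place, lay near 0.131% (0.100 to 0.168) of events on day 6 only and 0.714% (0.529 to 0.943) of events on day 5 only.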

How the data were processed

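Onecut1 ChIP-exo events of day 6 and day 5 were taken as deposited, with Isl1, p300, Ngn2, ATAC, H3K27ac and RNA data of the same series. Each deposited list holds, per the file headers, an event's IP (precipitated) and control signal in reads, a fold ratio, and its q-value and p-value as −log10. IP, control and −log10 values were used, and the authors' fold, capped at 9999.9, was not. Scores of the deposited ATAC, H3K27ac and Ngn2 lists were not used beyond their positions. The FPKM values were made by the authors. Build mm9 and the programs Bowtie 0.12.7, STAR, MACS and HOMER 4.7.2 come from the submitters' processing notes, which give no roles. The event caller's settings and the read depths were not given in the sources used here.

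Events were matched to the nearest event of the other list within 100 bp. Chance levels came from moving 1 list by 10 kb each way. Clusters joined events up to 500 bp apart. An event was in a peak where its position lay inside it. Named events were the 5 strongest of each class, with events of both days ranked by their worse rank, and the 3 largest clusters of each list. Python 3.11.15, numpy 2.4.6, pandas 2.3.3 and scipy 1.17.1 were used, and figures were drawn with matplotlib 3.10.9. The matching was tested on simulated data. With 1 library per day, shares carry exact binomial intervals at 95%, and no test was made. The comparisons, members and marker lists were chosen with earlier results of these data known. No mm9 genome or annotation was used here, so motifs, sequences and genes at the events are not analysed here. The IgG, whole cell extract and day 0 DNase samples were not used here.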

Additional observations from a re-analysis of the deposited data

How the results depend on the processing

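Of 43 alternative values for 22 results, 11 stayed within the counting interval of the reported value and 32 moved beyond it. The matched share of day 6 and of day 5 events was 24.4% and 68.9% at a match distance of 50 bp, 26.1% and 71.2% at 200 bp, and 23.6% and 64.3% for mutual nearest pairs. With both lists at a −log10 q of 5 or more (27718 and 5677 events) it was 17.1% on day 6 and 80.6% on day 5. The lengths of these strict lists lie further apart in proportion, which by itself moves the shares apart. With events joined into clusters, an alternative chosen after seeing the data, the matched share was 23.7% and 68.6%. At equal list length it was 43.9% on day 6 and 46.5% on day 5 at 50 bp, and 46.7% on day 6 at 200 bp. With control subtracted, Spearman's rank correlation at paired events was 0.612. The share of events in clusters was 13.5% on day 6, 26.2% in the equal-length day 6 list and 24.3% on day 5 at a gap of 200 bp, and 20.5%, 30.7% and 27.2% at 1000 bp. Within 100 bp of a peak, in place of inside it, the shares for day 6 only, both days and day 5 only were 11.2%, 25.6% and 12.3% for ATAC day 6. They were 7.46%, 19.8% and 13.1% for ATAC day 5, 9.62%, 15.6% and 12.4% for H3K27ac day 6, and 2.12%, 3.61% and 4.65% for H3K27ac day 5. At that distance the order of classes turned in 2 maps. Events on day 6 only fell behind those on day 5 only for ATAC day 6 (inside peaks 6.07% and 5.88%), and matched events led those on day 5 only for H3K27ac day 6 (inside peaks 7.86% and 7.91%). No cluster reached 10 events, so leaving such clusters out changed nothing.

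No paired analysis was possible because Onecut1 had 1 library per day and the replicate numbers of Isl1 enter no test. For the same reason no replicate of Onecut1 was left out. With read depths not given in the sources used here, differences in list length and in IP reads between the days cannot be told apart from depth, and events missing from a list were not detected at its depth and threshold.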

Other observations

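Ngn2, the proneural factor induced by a transgene, was mapped in an induced line on day 4, and few of its events were met by Onecut1. Of 3184 Ngn2 events, 4.40% had a Onecut1 event within 100 bp on day 6 and 3.89% on day 5, with 0.612% and 0.220% after the shift. Seen from Onecut1, an Ngn2 event lay near 0.175% (0.140 to 0.217) of events on day 6 only, 0.441% (0.344 to 0.556) of day 6 events on both days, 0.653% (0.536 to 0.789) of day 5 events on both days, and 0.918% (0.706 to 1.17) of events on day 5 only. For the library labelled Lhx3, also of day 4, the share was 0.714% for events on day 5 only and 0.850% for day 6 events on both days. ATAC peaks of day 4, when the cultures were progenitors, held 1.59% (1.48 to 1.71) of events on day 6 only, 2.56% (2.32 to 2.81) of day 6 events on both days and 1.88% (1.57 to 2.23) of events on day 5 only.

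The densest 1 Mb windows were partly the same on both days. The window starting at 68000000 on chromosome 14 held 65 events on day 6 and 43 on day 5, the most of any window on day 5. The window starting at 57000000 on chromosome 13 held 67 events on day 6, the most of that day, and 23 on day 5.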
